A study of Homo sapiens with 6 samples.

Results

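DEAD- and DEAH-box proteins are ATP-driven RNA helicases named after the letters of their helicase motif II, and they open RNA duplexes or remodel RNA-protein complexes in nearly every step of RNA metabolism. DEAD-box (DDX) proteins mostly separate short duplexes locally, whereas DEAH-box (DHX) proteins mostly move along a single strand. Members of both groups are required for ribosome assembly in the nucleolus, for the ordered rearrangements of the spliceosome, and for messenger RNA (mRNA) export, translation and decay.

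The genes described here are the protein-coding genes outside chromosome Y whose symbol begins with DDX or DHX followed by a digit, with DDX1 and DHX9 left out. This rule, which uses no measured value, gave 51 of the 60651 genes in the deposited tables, of which 36 were DDX and 15 were DHX genes. Their RNA was measured in SK-N-AS, a human line established from a neuroblastoma, which here carried a stably transfected MYCN construct under a tetracycline repressor (TR) system and was kept as single clones under 2 selection antibiotics. The 3 control libraries (titled ETOH) and the 3 MYCN-induced libraries (titled Tet, tetracycline in the medium) came from cells harvested at 120 h, so both groups carried the repressor and the construct and differed in whether tetracycline had been added. The comparison asks how the RNA levels of these helicases differ after MYCN, a MYC-family transcription factor, has been switched on. An effect of tetracycline itself and an effect of MYCN cannot be told apart in this design.

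MYCN itself was at 30.3, 35.5 and 32.4 CPM (read pairs scaled to a common, TMM-normalized library size) in control replicates 1, 2 and 3 and at 210.7, 221.3 and 198.6 CPM in the induced libraries, a log2 fold change of 2.68 (adjusted p = 4.15e-05, edgeR's quasi-likelihood test with Benjamini-Hochberg adjustment), and every induced library was above every control. Libraries held 64500589 to 102249336 counted read pairs. MYCN-induced replicate 3 lay apart on the first principal component (69.1, with induced replicates 1 and 2 at 14.4 and 13.1 and controls at -40.3 to -25.9), and the summed level of 18 integrated stress response genes was 828 TPM in it (a level per exon length), while replicates 1 and 2 were at 420 and 375 and the controls at 225 to 233. Calls that change when this library is left out are given beside the results below. The summed level of 10 adrenergic neuroblastoma genes ranged from 526 to 669 TPM in controls and from 497 to 651 in induced cells, and that of 10 mesenchymal genes from 197 to 212 and from 213 to 259. Of 8 leukocyte genes 3 passed the count filter and of 6 endothelial genes 3 did, with summed levels of at most 4.83 and 0.345 TPM.

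The sequences below are the codons of motif II, the feature that names the family, in members whose values are described later. Each run is 30 coding bases of the canonical GENCODE 44 transcript on GRCh38, written 5′ to 3′ on the coding strand, with the 12 bases of motif II in capitals. DDX10, DDX31 and DHX33 carry the textbook DEAD or DEAH motif, the paralogs DDX21 and DDX50 carry DEVD, and the paralogs DDX39A and DDX39B carry DECD. The runs of DDX19A and DDX19B have the same letters throughout, and both genes lie on chromosome 16.
DDX10: ttagttcttGATGAAGCAGATagaatcttg
DDX31: ttggtgtttGATGAAGCAGACagaatcttg
DHX33: gtcattttgGATGAAGCTCACgaacggact
DDX21: gttgtcctgGATGAAGTGGACcagatgttg
DDX50: gttgtgcttGATGAAGTGGATcagatgtta
DDX39A: tttgtgctgGACGAGTGTGACaagatgctg
DDX39B: tttattttgGATGAATGTGATaagatgctt
DDX19A: tttgttctgGATGAGGCTGATgtcatgata
DDX19B: tttgttctgGATGAGGCTGATgtcatgata

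These runs lie inside 1 coding exon at chr17:5462397-5462426 (DHX33, minus strand, exon 3 of 12), chr10:68967119-68967148 (DDX21, plus strand, exon 6 of 15), chr10:68913492-68913521 (DDX50, plus strand, exon 6 of 15), chr19:14410999-14411028 (DDX39A, minus strand, exon 5 of 11), chr6:31536510-31536539 (DDX39B, minus strand, exon 5 of 11), chr16:70366192-70366221 (DDX19A, plus strand, exon 8 of 12) and chr16:70329399-70329428 (DDX19B, plus strand, exon 8 of 12). The run of DDX10 crosses an intron of 935 bases within chr11:108678432-108679396 (plus strand), and that of DDX31 an intron of 136 bases within chr9:132648289-132648454 (minus strand). A search of the translated transcripts for motif II downstream of the nucleotide-binding motif I found DEAD in 26 members, all of them DDX genes, and DEAH in 8, all of them DHX genes. DEVH was found in 4 DHX genes, DECD and DEVD in 2 DDX genes each, DESD in DDX52 and DEIH in DHX36. The search pattern was not met in the other 7 members, DDX11, DDX28, DDX51, DDX60, DDX60L, DHX32 and DHX58. A miss does not show that motif II is absent, so these counts hold for this pattern only. The median log2 fold change after induction was 0.10 for the 24 tested genes in which DEAD was found and 0.11 for the 8 in which DEAH was found.

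Most helicases of the family were expressed, and levels spanned a wide range. Of the 51 members, 34 had a mean of at least 10 TPM over the 6 libraries, 12 lay between 1 and 10 TPM and 5 lay under 1 TPM, where TPM were computed from the counts and the exon length of each gene. The transcriptional coregulator DDX5 was the highest in control cells at 190 ± 5.52 TPM (SD, n = 3), followed by the nucleolar helicase DDX21 at 182 ± 15.9 TPM, and the control libraries of the 2 genes overlapped. DDX17, the paralog of DDX5, was next at 93.9 ± 9.05 TPM, below every control value of DDX21. The translation factor DDX3X at 62.4 ± 3.31 TPM and DDX42, which associates with the branch-site recognition complex of the spliceosome, at 61.9 ± 4.01 TPM lay below DDX17 and overlapped each other. These 5 genes made up 42.8% of the summed TPM of the family in controls. The median member was at 14.6 TPM. These levels divide by all annotated exon bases of a gene, not by the transcripts expressed. The exon bases were 15828 for DDX3X, 9997 for DDX17 and 4973 for DDX21. In CPM, which are not divided by length, the control means were 602 (DDX3X), 571 (DDX17) and 550 (DDX21). The order of these genes therefore depends on the length used.

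At the lower end stood the RNA-sensor relative DHX58 (also called LGP2) at 1.01 ± 0.0903 TPM and the cancer-testis gene DDX53 at 0.837 ± 0.0441 TPM in controls. DDX25, a testicular helicase, was at 0.0233 ± 0.00224 TPM. The germ cell marker DDX4 (VASA) had 0, 3 and 6 counts in the controls and 1, 3 and 2 counts in the induced libraries. DDX43, another cancer-testis gene, had 0 counts in all 6 libraries, which allows up to 3 counts per library, or 0.0293 to 0.0465 CPM depending on depth (counting error only). DDX4 and DDX43 did not reach 10 counts in 3 libraries and were not tested, which left 49 tested members. Along the order of control levels, 12 of the 50 pairs of neighbours did not overlap between control libraries, among them DDX21 and DDX17, DDX17 and DDX3X, and DDX42 and the next gene, DHX15. The other 38 neighbouring pairs did overlap, so most positions within the order cannot be separated by their spread. The plot of TPM by gene shows the flat middle of this order, the steep fall at its lower end, and 1 control library of DDX39B far below the others.

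**Figure D1:**
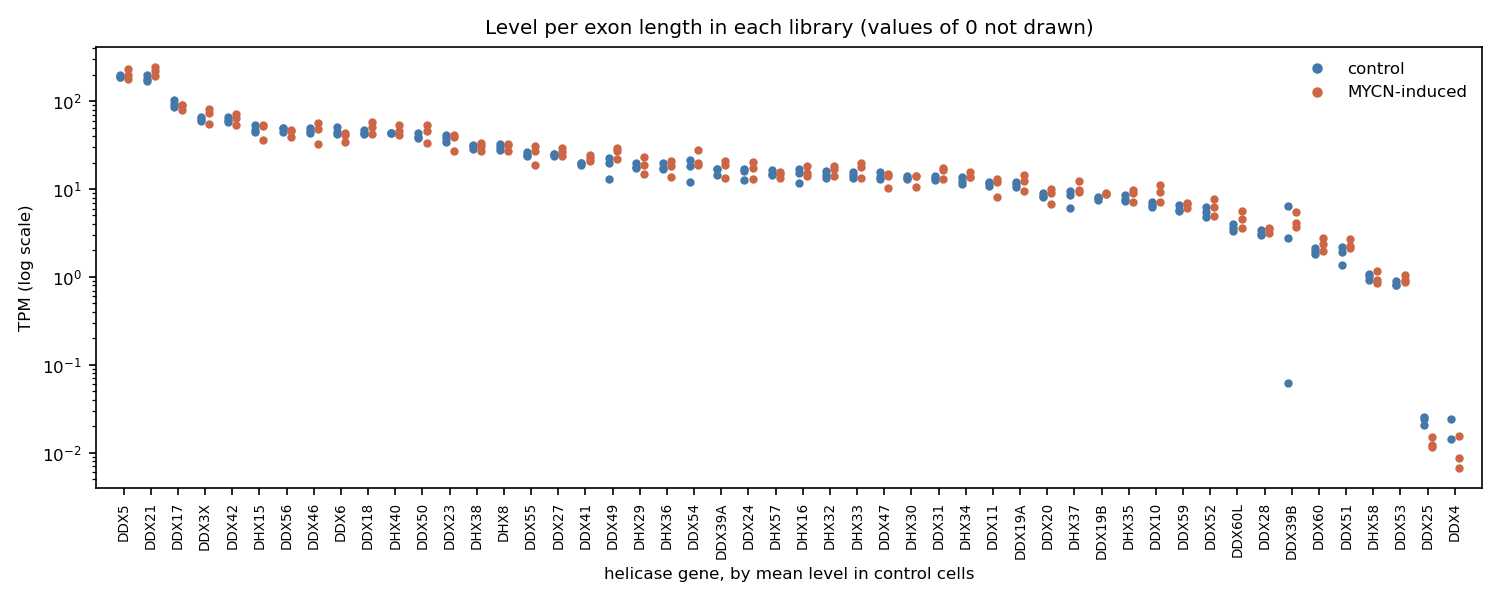
Level of each helicase gene in TPM (log axis) in the 3 control and 3 MYCN-induced libraries, ordered by the control mean (points are single libraries; values of 0 are not drawn, so DDX43 is missing and DDX4 lacks control replicate 1). DDX5 and DDX21 sit highest at 190 and 182 TPM, 34 members lie at 10 TPM or more, and DDX25 and DDX4 sit below 0.03 TPM.

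After induction, 1 of the 49 tested members was higher and 0 were lower at an adjusted p under 0.05 by edgeR's quasi-likelihood test, the higher one being DDX10. Over all 29086 genes tested, 1.02% were called higher and 2.38% lower. At an unadjusted p under 0.05, 11 members (22.4%) passed, 9 higher and 2 lower, against 18.7% of all genes. The values of the 2 groups did not overlap for 15 members (30.6%), of which 12 were higher and 3 lower, against 26.3% of all genes and 30.5% of the other protein-coding genes. These shares lie near the background. Both lower counts include DDX25, which passed the count filter only through the controls. DESeq2 called 5 members higher (DDX10, DDX21, DDX31, DDX60 and DDX60L) and 0 lower, where it called 3.11% of all genes higher and 4.12% lower. Without MYCN-induced replicate 3, edgeR called 8 members higher, namely DDX10, DDX18, DDX21, DDX31, DDX3X, DDX60, DDX60L and DHX33, and 0 lower, against 3.68% of all genes higher and 4.44% lower.

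The fold changes were small on the relative scale of these libraries. Levels were scaled to library totals and the 92 spike-in rows were 0, so changes in RNA per cell were not measured. The median log2 fold change of the members was 0.12, against 0.000 over all genes and 0.025 over the other protein-coding genes, and 39 of 49 lay within 0.25 of 0. Of the 49, 36 (73.5%) were above 0, against 49.9% of all genes and 55.1% of the other protein-coding genes. The difference was smaller among genes of like level. Among the 34 members of at least 10 TPM, 67.6% were above 0 with a median of 0.087, against 65.4% and 0.058 for the 5041 other protein-coding genes at that level. DDX genes had a median of 0.135 (34 tested, 26 above 0) and DHX genes one of 0.015 (15 tested, 10 above 0), and the difference between the 2 groups was not tested. The median deviation of the members from the control mean was 0.098, 0.143 and 0.089 on the log2 scale in induced replicates 1, 2 and 3 and between -0.016 and 0.013 in the controls. The plot of fold changes by role shows that most intervals crossed 0 and that 14 of the 16 ribosome assembly genes lay to the right of 0.

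**Figure D2:**
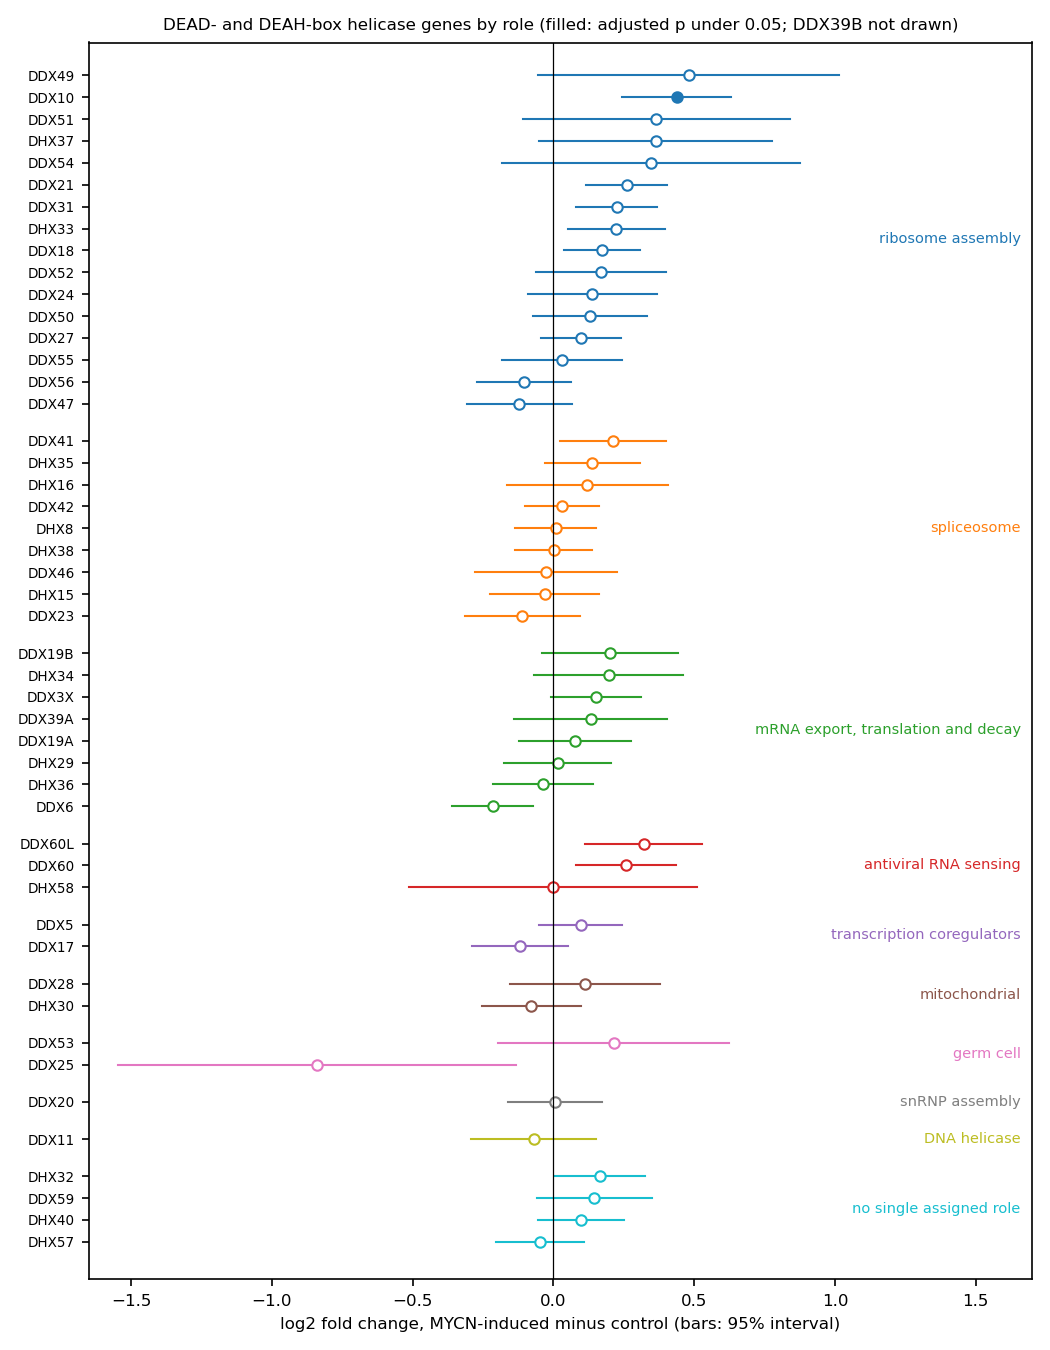
Log2 fold change of 48 tested helicase genes, MYCN-induced minus control, with 95% intervals from edgeR, grouped by role (filled point: adjusted p under 0.05; DDX39B, at 0.50 with an interval from -1.84 to 2.85, is not drawn). Only DDX10 is filled, and 14 of the 16 ribosome assembly genes lie above 0. DDX25, which passed the count filter only through the controls, is the lowest at -0.84.

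Helicases of ribosome assembly, which unwind or reposition precursor ribosomal RNA and small nucleolar RNAs on the growing ribosomal subunits, had the highest median among the larger role lists. Of the 16 members, all tested, 1 was called higher and 0 lower, where 1.02% and 2.38% of all genes were. The median log2 fold change of the list was 0.20. The median was 0.000 over all genes, 0.025 over the other protein-coding genes and 0.058 over those of at least 10 TPM. In the list, 14 were above 0. The share above 0 was 49.9% of all genes, 55.1% of the other protein-coding genes and 65.4% of those of at least 10 TPM. DDX10, DDX51, DDX52 and DHX37 of the list lay under 10 TPM. DDX10, a nucleolar helicase of precursor RNA processing, was at 35.6, 35.0 and 34.6 CPM in controls and at 46.7, 52.3 and 43.4 CPM in induced cells. Every induced library lay above every control, and the lowest induced value was that of replicate 3. DDX10 rose from 35.1 ± 0.506 to 47.5 ± 4.49 CPM (SD, n = 3), a log2 fold change of 0.44 with a standard error of 0.083 (95% interval 0.24 to 0.63, adjusted p = 0.0363). Its adjusted p ranged from 0.000848 to 0.197 over the alternatives. In bulk RNA, a higher level per cell and more cells with a high level cannot be told apart.

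DDX21, which acts in transcription and processing of ribosomal RNA, was at 571.5, 547.6 and 532.0 CPM in controls and at 645.4, 662.3 and 669.2 CPM in induced cells. The groups did not overlap, the log2 fold change was 0.26 ± 0.062 (SE), and the adjusted p was 0.0685. DDX31, another nucleolar helicase, was at 44.5, 45.4 and 44.6 CPM against 53.5, 53.1 and 50.4 CPM. Here too all induced values lay above all controls, with a log2 fold change of 0.22 ± 0.063 (SE) and an adjusted p of 0.104. DHX33, which takes part in ribosomal RNA synthesis, was at 51.6, 51.4 and 49.6 CPM against 61.3, 62.4 and 54.5 CPM (log2 fold change 0.22, adjusted p = 0.159). DDX18, a factor of large-subunit assembly, was at 213, 208 and 211 CPM against 236, 245 and 231 CPM (log2 fold change 0.17, adjusted p = 0.163). In DDX31, DHX33 and DDX18, as in DDX10, induced replicate 3 was the lowest of the induced libraries, whereas in DDX21 it was the highest. Without that library, the log2 fold changes of DDX10, DDX21, DDX31, DHX33 and DDX18 were 0.51, 0.26, 0.26, 0.29 and 0.20, with adjusted p of 0.0076, 0.0243, 0.0266, 0.0178 and 0.0458. The panels of CPM per library show these separations together with those of DDX60L, DDX60 and DDX6.

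**Figure D3:**
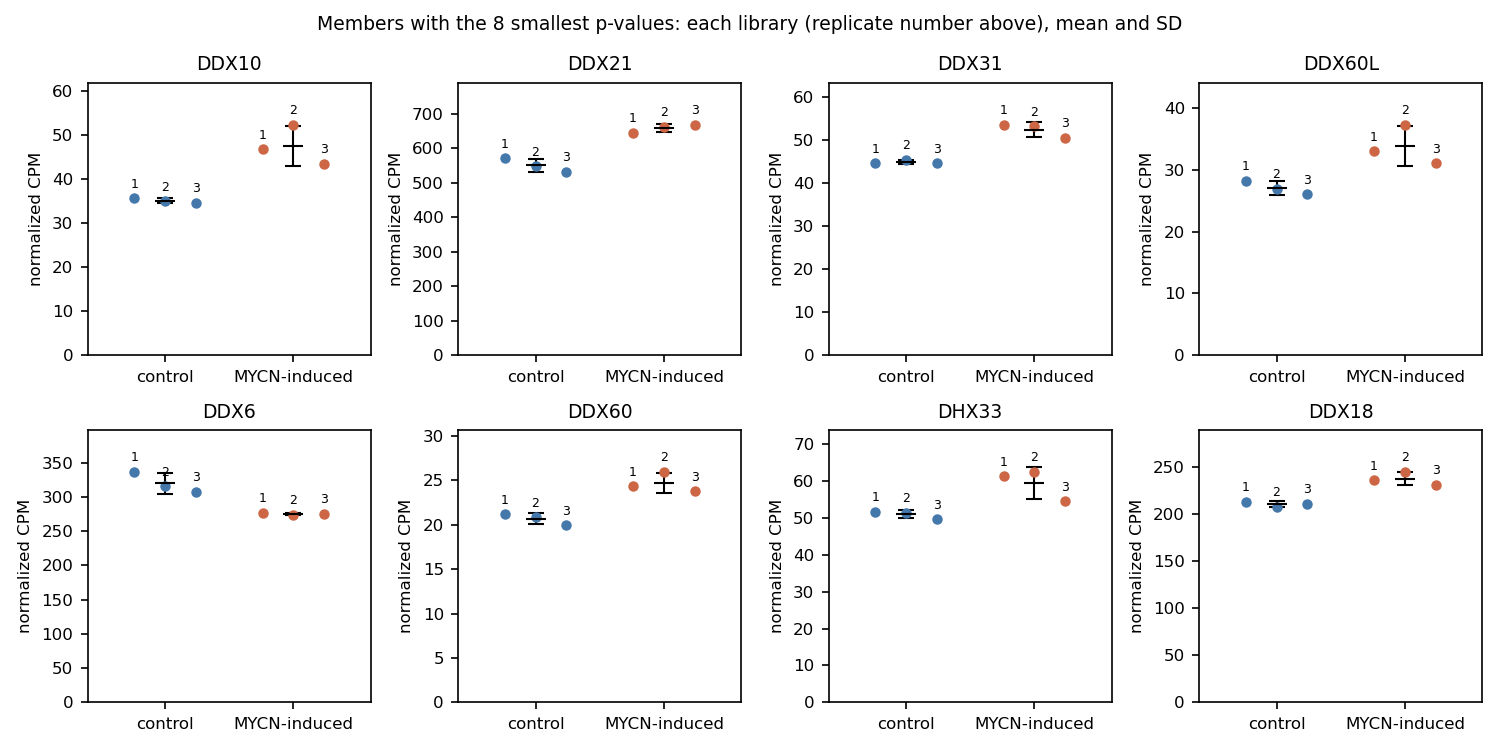
Normalized CPM of the 8 members with the smallest p-values in control and MYCN-induced cells (points are libraries with their replicate number, horizontal marks are means, bars are SD, n = 3, axes start at 0). In every panel the 3 induced values lie on 1 side of the 3 controls, higher in 7 genes and lower in DDX6.

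In DDX49 and 3 further ribosome assembly genes control replicate 1 lay well below the other controls, and the range among the controls was wider than the difference between the group means. DDX49 was at 25.2, 40.6 and 47.9 CPM in controls and at 42.8, 53.1 and 62.6 CPM in induced cells, a log2 fold change of 0.48 with a standard error of 0.23 (adjusted p = 0.319). The lowest value was that of control replicate 1, and the groups overlapped. DHX37, which releases the U3 small nucleolar RNA from the small-subunit precursor, was at 24.4, 36.3 and 41.6 CPM against 40.3, 46.7 and 44.5 CPM (0.36, adjusted p = 0.329). DDX51 (0.37, adjusted p = 0.397) and DDX54 (0.35, adjusted p = 0.481), both factors of the large subunit, had the same pattern of a low control replicate 1; DHX37, DDX51 and DDX54 were singled out after their values were seen. Without control replicate 1, the log2 fold changes of DDX49, DHX37, DDX51 and DDX54 were 0.25, 0.17, 0.16 and 0.11.

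These 4 genes are rich in G and C. Their exons hold 60.9% (DDX49), 60.3% (DHX37), 59.1% (DDX51) and 59.8% (DDX54) GC, where the median member holds 47.0% and the median tested gene 47.1%. Control replicate 1 lay below the mean of the other controls by a log2 CPM difference of -0.81 for DDX49, -0.67 for DHX37, -0.71 for DDX51 and -0.82 for DDX54. DHX34 (61.8% GC) and DDX39A (61.3% GC) hold more, and their differences were smaller, at -0.305 and -0.343. Across the 49 tested members, exon GC content and this difference had a Spearman correlation of -0.67, and across all 29086 tested genes one of -0.44, as a description over genes that share the same libraries. GC content and the fold change after induction had a correlation of 0.14 over the members. With a GC correction of each library, chosen after the data were seen, the log2 fold changes of the 4 genes were 0.49, 0.38, 0.39 and 0.37, and the standard error of DDX49 was 0.15. Its adjusted p was then 0.111, and over all alternatives it ranged from 0.0285 to 0.554.

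**Figure D4:**
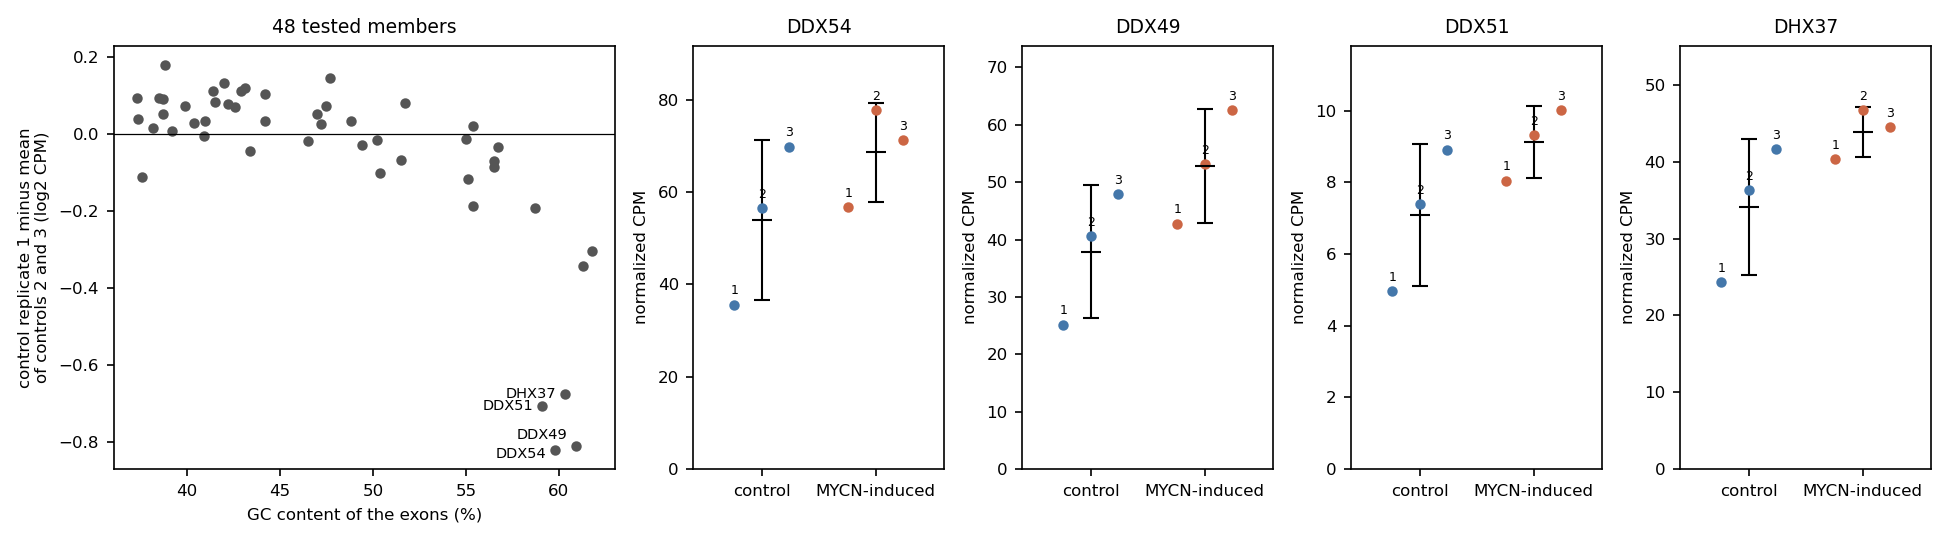
Left, GC content of the exons (%) against the log2 CPM of control replicate 1 minus the mean of controls 2 and 3 for 48 tested members (DDX39B is left out). Right, normalized CPM of DDX54, DDX49, DDX51 and DHX37 per library (replicate number at each point, mean and SD, n = 3). The 4 named members fall lowest on the left, and control replicate 1 is the lowest library in all 4 panels.

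DDX50, the paralog of DDX21, lies 9322 bases from it on chromosome 10 in the same orientation. It was at 67.8, 63.7 and 64.9 CPM in controls and at 73.0, 78.4 and 63.6 CPM in induced cells. The groups overlapped through induced replicate 3 (log2 fold change 0.13 ± 0.088 (SE), adjusted p = 0.487). Per exon length, DDX21 was 4.54 times the level of DDX50 in controls and 4.91 times in induced cells. The members of the list below 0 were DDX47 at -0.12 and DDX56 at -0.11. DDX47 shares 36.5% of its exon bases with APOLD1 on the same strand. APOLD1 had 4852.5, 3765 and 4157 counts in controls where DDX47 had 4821.5, 3746 and 4236. Pairs on both genes were shared in equal fractions, so the level of DDX47 and its place in the order of levels are uncertain.

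Helicases of the spliceosome drive its assembly, activation, catalytic steps and disassembly. Among 10 tested members, 0 were called by edgeR or DESeq2 and 1 passed at an unadjusted p under 0.05 (18.7% of all genes did). Their median log2 fold change was 0.019, with 7 above 0 (49.9% of all genes were). The sign of this median was not stable, at -0.014 when scaled by library size alone, -0.012 when scaled by the upper quartile, -0.008 with at least 100 counts in every library and -0.005 without control replicate 3. DDX41, a helicase of the catalytic spliceosome, was at 45.5, 51.0 and 53.0 CPM in controls and at 56.0, 55.9 and 61.3 CPM in induced cells. The groups did not overlap, although the gap was small, and the log2 fold change was 0.21 ± 0.082 (SE, adjusted p = 0.216). DHX35 was at 24.5, 23.3 and 23.3 CPM against 26.8, 26.2 and 25.2 CPM, without overlap (0.14, adjusted p = 0.365). DDX23, which exchanges U1 for U6 small nuclear RNA at the 5′ splice site, showed overlapping groups (log2 fold change -0.11, adjusted p = 0.562). The 5 splicing helicases DDX42, DDX46, DHX8, DHX15 and DHX38, had log2 fold changes between -0.031 and 0.031.

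DDX39B (UAP56), which acts in early spliceosome assembly and in mRNA export, had the widest spread. It was at 0.248, 27.2 and 12.4 CPM in controls and at 22.7, 15.5 and 18.3 CPM in induced cells. Control replicate 1 lay far below the other 5 libraries and control replicate 2 was the highest of all. The log2 fold change was 0.50 with a standard error of 1.01, and it was -0.08 without control replicate 1 and 1.57 without control replicate 2. DDX39B shares 30.8% of its exon bases with other genes, mostly with the read-through gene ATP6V1G2-DDX39B, which had 36.7, 2432.2 and 1280.4 counts in controls where DDX39B had 26.2, 2415.2 and 1262.4. Of 12471 genes above 5 CPM in controls, 4 had a range over 20-fold among the control libraries, among them these 2. No direction can be read for DDX39B from these libraries. Its paralog DDX39A, an mRNA export helicase, was at 31.8, 39.6 and 41.1 CPM against 42.8, 43.98 and 36.6 CPM, with overlap (0.13, adjusted p = 0.609).

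Helicases of mRNA export, translation and decay had a median of 0.10 over 8 tested members, with 6 above 0 (49.9% of all genes were). Among them, 0 were called by edgeR or DESeq2 and 1 passed at an unadjusted p under 0.05 (18.7% of all genes did). The median was 0.037 without control replicate 1 and 0.05 without induced replicate 2, and 1 member (DDX3X) was called without induced replicate 3. The member with the unadjusted p under 0.05 was DDX6, which couples translational repression to decapping and accumulates in P-bodies. DDX6 was at 337, 316 and 308 CPM in controls and at 277, 274 and 275 CPM in induced cells. Every induced value lay below every control, with a log2 fold change of -0.22 ± 0.062 (SE, 95% interval -0.36 to -0.07) and an adjusted p of 0.111. Over the alternatives its log2 fold change stayed between -0.25 and -0.18, its adjusted p was 0.0541 at the lowest, and no alternative called it. DDX3X, which promotes translation of mRNAs with structured leaders, was at 600, 608 and 597 CPM against 682, 703 and 618 CPM. The groups did not overlap and induced replicate 3 lay nearest to the controls (0.15 ± 0.070 (SE), adjusted p = 0.298; 0.21 without induced replicate 3, adjusted p = 0.0388).

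DDX19B and DDX19A, which act in mRNA release at the nuclear pore, are neighbours on chromosome 16, 11555 bases apart. DDX19B was at 20.9, 21.5 and 21.2 CPM in controls and at 24.1, 21.3 and 27.7 CPM in induced cells (0.20, adjusted p = 0.361), and the groups overlapped through induced replicate 2. DDX19A was at 51.7, 58.0 and 53.2 CPM against 58.0, 61.8 and 52.0 CPM (0.08, adjusted p = 0.693). As read pairs matching both copies are not unique, and as DDX19A shares 27.0% and DDX19B 20.9% of its exon bases with other genes, the split between them is uncertain.

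The antiviral list names 4 genes, of which DDX58 carries the symbol RIGI in the annotation and so falls outside the rule. The 3 members had a median log2 fold change of 0.26, with 0 called by edgeR. At an unadjusted p under 0.05, 2 passed (18.7% of all genes did), and DESeq2 called 2 higher (3.11% of all genes). DDX60L was at 28.3, 27.0 and 26.1 CPM in controls and at 33.1, 37.4 and 31.1 CPM in induced cells (0.32 ± 0.090 (SE), adjusted p = 0.104). DDX60, an interferon-inducible factor that lies 37851 bases from DDX60L on chromosome 4, was at 21.2, 20.9 and 19.97 CPM against 24.3, 26.0 and 23.8 CPM (0.26 ± 0.077 (SE), adjusted p = 0.123). In both genes all induced libraries lay above all controls with replicate 2 the highest, and DDX60 stood at 0.53 times the TPM of DDX60L in controls and at 0.51 times in induced cells. Without induced replicate 3 the log2 fold changes were 0.39 (DDX60L, adjusted p = 0.0254) and 0.29 (DDX60, adjusted p = 0.042). DHX58 was at 2.25, 2.14 and 2.67 CPM against 2.08, 1.79 and 3.18 CPM, with overlap (-0.0024, adjusted p = 0.997). The log2 fold change of RIGI was -0.09, with an adjusted p of 0.705. A list of 16 tested interferon-stimulated genes had a median of -0.014 with 8 above 0, and 0 were called by edgeR. At an unadjusted p under 0.05, 2 of these genes passed (18.7% of all genes did), and DESeq2 called 1 higher (3.11% of all genes). Without induced replicate 3, 1 of them was called lower and the median was -0.06, while without induced replicate 1 it was 0.017.

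The remaining lists are small. The coregulators DDX5 and DDX17 differed in sign, although neither passed the test. DDX5 was at 1056, 1073 and 1105 CPM in controls and at 1103, 1187 and 1167 CPM in induced cells (0.10, adjusted p = 0.483), and DDX17 at 598, 566 and 547 CPM against 531, 488 and 557 CPM (-0.12, adjusted p = 0.456), both with overlapping groups. Per exon length, DDX5 stood at 2.02 times DDX17 in controls and at 2.37 times in induced cells. The mitochondrial helicases DDX28, a mitoribosome assembly factor, and DHX30, a component of mitochondrial RNA granules, had log2 fold changes of 0.11 (adjusted p = 0.665) and -0.08 (adjusted p = 0.645). DDX20 (Gemin3), which joins the SMN complex in building spliceosomal snRNPs, had one of 0.0054 (adjusted p = 0.979), with a control range of only 45.1 to 45.5 CPM. DDX11, a DNA helicase of sister chromatid cohesion, had one of -0.07 (adjusted p = 0.756).

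Among the 2 tested germ cell genes, DDX25 had the lowest fold change of the family on very few reads. It had 16, 12.5 and 18 counts in controls and 5, 8.5 and 8 counts in induced libraries. The groups did not overlap, but the log2 fold change of -0.84 had an interval from -1.55 to -0.13 and an adjusted p of 0.194. DDX53 was at 1.86, 1.80 and 1.88 CPM against 1.97, 1.749 and 2.71 CPM, with overlap (0.21, adjusted p = 0.583). Of the 4 helicases without a single assigned role, DHX32 was at 36.8, 34.4 and 33.4 CPM against 39.0, 38.9 and 39.3 CPM, without overlap (0.17 ± 0.070 (SE), adjusted p = 0.254). DHX32 shares 10.4% of its exon bases with BCCIP on the opposite strand, so its counts are uncertain. DDX59, DHX40 and DHX57 had log2 fold changes of 0.15, 0.10 and -0.05, with adjusted p of 0.441 or more.

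Genes that work beside the family were also counted. Of 15 tested helicases of related families with other symbols, such as the translation factors EIF4A1 and EIF4A2, 0 were called by edgeR and 1 by DESeq2, with 3 at an unadjusted p under 0.05 (18.7% of all genes) and a median log2 fold change of 0.017. That median was -0.015 when scaled by library size alone, -0.013 by the upper quartile and -0.02 without control replicate 1. The 3 genes, chosen after their values were seen, were the RNA sensor IFIH1 (0.52, adjusted p = 0.0722), the mitochondrial helicase SUPV3L1 (0.23, adjusted p = 0.122) and the microRNA-processing enzyme DICER1 (-0.19, adjusted p = 0.149), each without overlap between the groups. Of 27 tested G-patch proteins and other cofactors, of this family or of related helicases, 0 were called by edgeR or DESeq2. At an unadjusted p under 0.05, 2 cofactors passed (18.7% of all genes did), and the median was 0.046. Without induced replicate 3, 1 cofactor was called higher. The median was 0.016 when scaled by library size alone or by the upper quartile and 0.026 without control replicate 1. The log2 fold changes of EIF4A1, EIF4A2 and EIF4A3 were 0.03, 0.02 and 0.02. DDX1, which neighbours MYCN on chromosome 2, and DHX9 lie outside the rule and had log2 fold changes of 0.08 (adjusted p = 0.589) and -0.04 (adjusted p = 0.867).

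MYC-family proteins bind DNA with their partner MAX at E-box motifs, of which CACGTG is the best known. CACGTG, which reads the same on both strands, was searched in the RefSeq promoter windows of GRCh38.p14, each from 250 bases before to 50 bases after a start site. It occurred in 10 of 61 windows of the members (16.4%), against 7.3% of all 34961 windows and 8.9% of those of tested protein-coding genes. Counted by gene, 10 of the 46 members with a window had it (21.7%), against 12.02% of the protein-coding genes tested and 8.8% of all genes. The variant CATGTG, searched as CATGTG and CACATG, occurred in 1 of 61 windows (1.6%). It occurred in 11.1% of all windows and in 7.8% of those of tested protein-coding genes. The matches of 7 members whose values are given above are shown, written on the gene's strand with the motif in capitals and up to 10 bases on each side.
DDX21: ccgggtgtccCACGTGgtccccggcg
DDX31: tcgcgcgtccCACGTGgggtcccggg
DDX54: cagcggaggtCACGTGgtcaccgcac
DHX37: tctgggaaccCACGTGggc
DDX5: gtggtacagcCACGTGacaacgccag
DHX32: attaggtgacCACGTGattgattagc
DDX25: gtggtggaagCACGTGctgggggcgg

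These matches lie at chr10:68956606-68956631 (DDX21, plus strand), chr9:132669990-132670015 (DDX31, minus strand), chr12:113185524-113185549 (DDX54, minus strand), chr12:124989082-124989100 (DHX37, minus strand), chr17:64506653-64506678 (DDX5, minus strand), chr10:125881392-125881417 (DHX32, minus strand) and chr11:125904475-125904500 (DDX25, plus strand). The motif begins at position -31 from the start site in DDX21, -22 in DDX31, -61 in DDX54, -115 in DHX32, -30 in DDX5 and -23 in DDX25, and at position 41 after it in DHX37. The 10 tested members with CACGTG had a median log2 fold change of 0.18, with 9 above 0, DDX25 below 0 and 0 called, and the 34 tested members with a window and no match had a median of 0.054, with 23 above 0 and 1 called, DDX10. Among other tested protein-coding genes the medians were 0.085 with the motif (1392 genes, 67.5% above 0) and 0.018 without it (10214 genes, 53.7% above 0). DDX25, which has the motif, passed the count filter only through the controls. The 10 members with the motif include the GC-rich genes DDX54, DHX34 and DHX37. In these, control replicate 1 lay below the mean of the other controls (log2 CPM differences of -0.82, -0.305 and -0.67). Its part in the median of the 10 was not tested. The differences between the medians were not tested either, a match of letters is no measured binding site, and no binding data were used here.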

How the data were processed

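Ribosomal RNA was removed enzymatically and paired-end reads were obtained with a stranded kit from 3 control and 3 MYCN-induced libraries of SK-N-AS cells. The authors deposited estimated counts, that is read pairs per gene over exons with pairs on several genes shared in equal fractions, and 31.9% to 33.4% of the values above 0 were not whole. The file header names featureCounts v1.6.4 on unique alignments with no strand option, the submitters' processing notes name STAR 2.7.1a, featureCounts 1.5.1 and GRCh38, and the methods describe a strand option. Where genes on opposite strands overlap, their values are uncertain. Of 60651 gene identifiers, 99.65% matched GENCODE release 44, which gave the symbols, and 48 of the 51 members had the same coordinates there. The 92 spike-in rows were 0 in every library.

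Groups came from the sample titles. The paper calls the replicates biologically independent experiments, and the labels do not name separate cultures, so p-values measure the spread between these libraries. Replicates differed by more than sampling noise (chi-square per gene from 12.1 to 145.6). Deviations of libraries with the same number correlated at 0.22, -0.02 and 0.07, so the numbers were not treated as pairs.

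Estimated counts were rounded. A minimum of 10 counts in 3 or more libraries left 29086 genes, which entered edgeR 4.0.16 under R 4.3.3 (TMM, quasi-likelihood, Benjamini-Hochberg over all genes tested, threshold 0.05). The biological coefficient of variation was 0.153. On simulated counts of 28540 genes with 200 changed 2-fold, 154 (77%) were recovered with 10 false calls. The simulation gave every gene the same dispersion and held no outlying library. It does not measure how often changes as small as most of those described here are called. Intervals are 95% intervals of the fit. Deviations from the control mean used a prior count of 2. TPM used the exon lengths in the files.

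Members and role lists were chosen with earlier results of these data known. Genes named are those called by edgeR or any alternative, the 3 smallest p in each role list (all of lists of 4 or fewer), the 5 highest and 5 lowest in TPM, and 5 paralog pairs, apart from genes said to be chosen after their values were seen and genes given as examples of a list, namely DDX42, DDX46, DDX47, DDX56, DHX8, DHX15, DHX38 and EIF4A3. Alternatives were scaling by library size or upper quartile, DESeq2 1.42.0, a minimum of 100 counts in every library or none at all, a replicate block, each library left out, thresholds of 0.01 and 0.1 and protein-coding genes only. A GC correction (lowess, span 0.3) with and without the block was added after the data were seen. RefSeq promoter windows were found for 46 members. DDX18, DDX49, DDX52, DHX33 and DHX58 had none in the table used.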

Additional observations from a re-analysis of the deposited data

How the results depend on the processing

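The count of members called higher, 1 with edgeR and TMM, was 0 when scaled by library size alone, 0 by the upper quartile, 5 with DESeq2, 0 at an adjusted p under 0.01, 2 at one under 0.1, 2 among protein-coding genes only, 4 with the GC correction and 2 with the GC correction and the replicate block. With each library left out it ranged from 0 to 8. It was 0 without any of the controls or induced replicates 1 and 2, and 8 without induced replicate 3. The count called lower was 0 in every alternative run.

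The median log2 fold change of the tested members, 0.12, was 0.086 when scaled by library size alone and 0.087 by the upper quartile, where the median of all genes moved to -0.034 and -0.031, and 0.142 with the GC correction, with or without the block. With libraries left out it ranged from 0.074 (without control replicate 1) to 0.127. With the replicate block alone the count higher was 1, which was DDX49 (adjusted p = 0.0494) in place of DDX10 (0.0516), and with the GC correction and the block both DDX10 and DDX49 (0.0285) were called. Of the 27 cofactors 1 was called higher with the block, both without and with the GC correction. The sign of the fold change was the same in every alternative run for 38 of 50 members fitted and changed in 12. DDX4 was fitted only without the count filter. Depth limits DDX25, DDX4 and DDX43, and overlap with other genes limits DDX39B, DDX47, DDX19A and DDX19B. As no strand option is named, overlap on the opposite strand also limits other members. Among them are DDX20 (15.1% of exon bases), DHX38 (11.1%), DHX32 (10.4%), DDX54 (9.9%) and DDX55 (9.4%).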

Other observations

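Beside the protein-coding members, 43 genes outside chromosome Y with DDX or DHX symbols are not protein-coding, 35 of them pseudogenes and 8 long noncoding RNAs. Of these, 22 passed the count filter and 8 had 0 counts in every library. Among the 22, 0 were called by edgeR and 2 passed at an unadjusted p under 0.05 (18.7% of all genes tested did). The 2 were processed pseudogenes, named after their values were seen. DDX10P2 had 30, 17 and 16 counts in controls and 38, 35 and 53 in induced libraries (log2 fold change 1.30, adjusted p = 0.0685, edgeR). DDX6P2 had 40, 40 and 68 counts in controls and 20, 21 and 27 in induced libraries (log2 fold change -0.83, adjusted p = 0.17). Both fold changes had the sign of the parent genes DDX10 and DDX6. Other tested processed pseudogenes of tested parents went both ways. DDX10P1 (0.05) and DDX18P5 (0.22) had the sign of the parent. DDX18P1 (-0.02), DDX50P1 (-0.07), DDX3P1 (-0.13) and DDX3P2 (-0.08) lay below 0, while DDX18, DDX50 and DDX3X lay above it. Pairs that match both a parent and its copy cannot be assigned with certainty.

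The unprocessed pseudogenes DDX12B (21.8 ± 0.511 CPM in controls, 20.3 ± 2.02 CPM in induced cells, SD, n = 3) and DDX12P (19.6 ± 1.31 and 17.0 ± 4.06 CPM) were the most abundant of these genes together with the antisense RNA DHX9-AS1 (19.6 ± 0.988 and 18.5 ± 0.532 CPM). DDX12B and DDX12P are near-copies of DDX11, whose own level is uncertain for this reason. As no strand option stands in the file header, reads of DHX9-AS1 cannot be told apart from reads of genes on the other strand.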
